A study of Drosophila melanogaster with 8 samples.

Results

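The genes described here are 9 stress-linked genes of Drosophila melanogaster, taken by name from a table of 15240 gene rows. They are the Turandot genes TotA, TotB, TotC, TotF, TotM, TotX and TotZ, and 2 genes first studied for their response to cold, Fst (Frost) and smp-30. All 9 symbols were found in the table. RNA had been sequenced from whole heads, about 90 per sample, of socially naive adults aged 6 days. The flies came from Canton-S (CantonS below) or from Bully, a hyper-aggressive line in the Canton-S background, and rearing was at 19C or 25C for each line. That gives 4 groups, Bully 19C, Bully 25C, CantonS 19C and CantonS 25C, with 2 libraries each, so every mean ± SD below has n = 2. The series calls the replicates independent, but the labels do not name cultures or collection days, and p-values measure only the spread between these libraries. The columns carry no replicate number, so libraries are named a and b in column order. The temperature is that of rearing, and the labels used here name no cold shock, infection or other acute treatment.

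Turandot genes encode small secreted proteins that the fat body releases into the hemolymph after infection, heat, cold, wounding or other stress. In the fly, cytokines of the Unpaired family bind the receptor Domeless, the kinase Hopscotch then activates the transcription factor Stat92E, and TotA is a widely used readout of that pathway, with further input from the kinase Mekk1 and from the NF-kappaB factor Relish. Fst is known for a strong rise during recovery from cold exposure. The gene smp-30, also called Dca, is a relative of the vertebrate calcium-binding protein regucalcin and was first studied in flies for its response to cold acclimation. In bulk heads, fewer cells of a type and less RNA per cell cannot be told apart.

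Values are RPKM, read counts scaled by gene length and library size, so levels of different genes can be set side by side. Effective library sizes, read from the steps between RPKM values, were 79.9 to 117.8 M (mega) reads in 7 libraries and 47.6 M in CantonS 25C a. Photoreceptor transcripts were abundant, with the rhodopsin gene ninaE at 4950 RPKM or more. In CantonS 19C b the neuronal genes Syt1 and elav were low, at 24.3 and 1.43 RPKM against at least 42.0 and 3.04 RPKM in every other library. The neuron markers brp and Rdl were not lowest there, at 8.19 RPKM (7.63 to 17.1 over the 8 libraries) and 19.2 RPKM (14.7 to 20.1). Summed RPKM of 10 fat body markers lay between 386.4 and 500.3 in 6 libraries and at 874 and 830 in the libraries of Bully 19C. That excess was mainly in the larval serum protein gene Lsp2, at 366 and 398 RPKM against 52.4 to 159 elsewhere. A smaller part was in the gene takeout (to), at 197 and 177 RPKM against 54.8 to 144 elsewhere. The fat body markers Fbp1 and Fbp2 were at or near 0 throughout. The part of these shifts in the results below was not tested.

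The 9 genes fell into an abundant class and a nearly silent class with nothing between them. TotA was the highest, with a mean of 191.4 RPKM over the 8 libraries (lowest 113.4, highest 313.9), rank 162 among all rows. TotX followed at 29.4 RPKM (22.0 to 39.5), smp-30 at 23.5 (15.9 to 31.4), TotC at 21.95 (5.67 to 54.8) and TotM at 8.94 (1.498 to 41.0). TotA exceeded TotX in all 8 libraries, by 3.46 to 8.05 times. The middle of the order was not resolved: TotX exceeded smp-30 in 6 of 8 libraries, and smp-30 exceeded TotC in 6 of 8. TotC exceeded TotM in all 8, by 1.34 to 10.1 times.

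**Figure D1:**
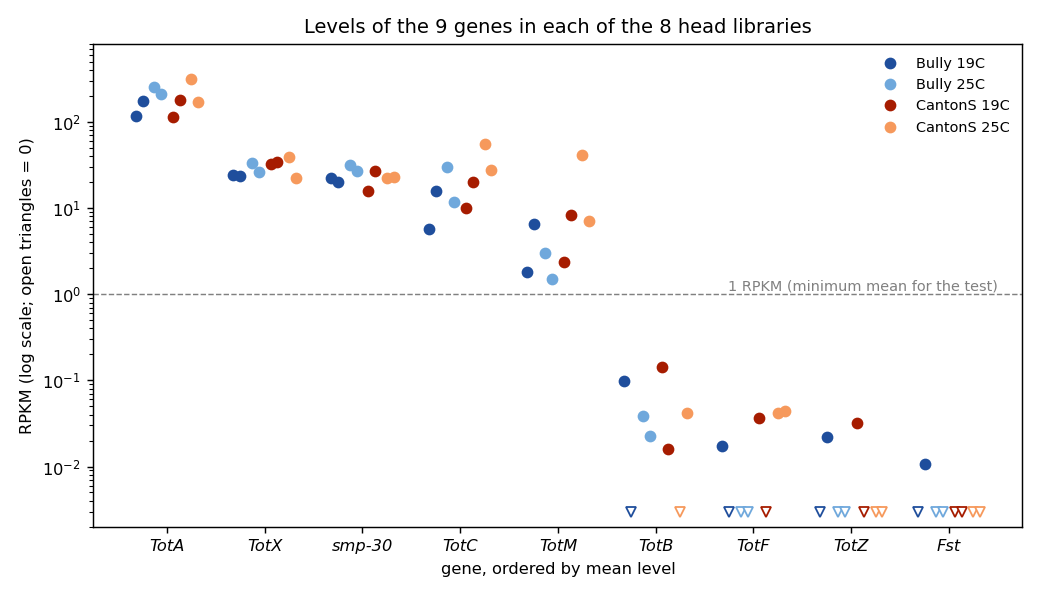
RPKM on a log axis for the 9 genes, ordered by mean level; each point is 1 library, coloured by group, and open triangles at the bottom mark libraries with a value of 0. The 5 genes on the left lie above 1 RPKM in every library, and the 4 on the right do not exceed 0.141 RPKM.

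The silent class held TotB, TotF, TotZ and Fst. Their values turned into whole reads within 0.02 of a read at the length of the single annotated transcript, so the reads behind them can be counted. Fst, the cold-recovery gene, had 1 read in all 8 libraries together, in Bully 19C b, out of 741 M effective reads. That is 0.0011 RPKM pooled, with an exact 95% Poisson interval reaching 0.0064 RPKM. TotZ had 3 reads (1 in Bully 19C, 2 in CantonS 19C, 0 in both 25C groups), and TotF had 6 (1, 0, 2 and 3 in Bully 19C, Bully 25C, CantonS 19C and CantonS 25C). TotB had 20 reads, of which 6 were in Bully 19C a and 8 in CantonS 19C a, and no other library had more than 2. A library with 0 reads of TotB allows up to 0.0714 RPKM in Bully 19C b and 0.120 RPKM in CantonS 25C a, taking 3 reads as the limit. A further family member, Victoria (TotE in the reference), which lies beside TotF, had 5 reads in all. Such intervals and limits hold for counting error alone, because several reads can come from 1 molecule.

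In heads of flies raised at 19C, Fst was thus not measurable at this depth. The upper Poisson limit for a single 19C library was at most 0.0593 RPKM (Bully 19C b), far below the 15.9 RPKM or more of smp-30.

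Position on the chromosome did not sort the classes. TotA, TotC, TotB and TotZ follow each other in this order on arm 3R, and TotX lies further along the same stretch. Mean levels along it were 191.4 RPKM for TotA, 21.95 for TotC, 0.045 for TotB, 0.0068 for TotZ and 29.4 for TotX. So TotC and TotB, adjacent genes on the same strand, differed from 21.95 to 0.045 RPKM, while the glutamate receptor gene KaiR1D before TotA was at 5.43 RPKM. TotX sits inside Grik, another glutamate receptor gene, on the opposite strand and without shared exon bases. Grik, listed in the table as CG5621, had a mean of 1.79 RPKM against 29.4 for TotX, and it is not stated whether reads were counted by strand. TotM and TotF lie apart from each other on arm 2L, TotF beside TotE. How reads matching more than 1 Turandot gene were assigned is not given in the sources used here, which bears most on the few reads of TotB, TotF and TotZ.

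**Figure D2:**
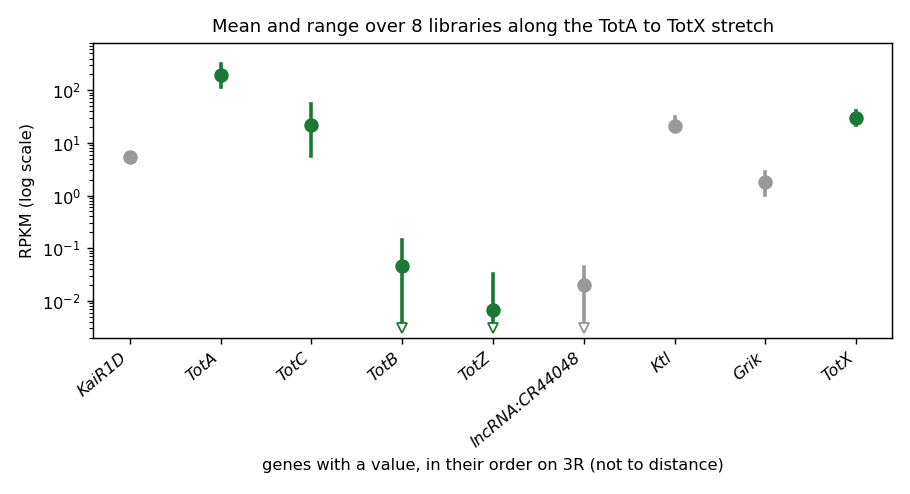
Mean RPKM (points, log axis) and range over the 8 libraries (bars) of the genes with a value, in their order on 3R from KaiR1D to TotX; green marks the Turandot genes, grey the others, and open triangles a lowest value of 0. TotA and TotC are high and the next genes, TotB and TotZ, are below 0.15 RPKM in every library.

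TotA, the founding member of the family, had 118 and 175 RPKM (a and b) in Bully and 113 and 179 in CantonS at 19C, against 255 and 208 in Bully and 314 and 170 in CantonS at 25C. The lines overlapped at both temperatures, and group means were nearly equal between them, 146 ± 40.1 and 146 ± 46.1 RPKM at 19C and 232 ± 33.5 and 242 ± 102 RPKM at 25C for Bully and CantonS. In limma, on log2(RPKM + 0.5), the line difference averaged over temperatures was 0.00 (SE 0.24, adjusted p = 0.993), or 1.00-fold with a 95% interval of 0.688 to 1.46. TotA was 1.61 times as high at 25C as at 19C averaged over lines (log2 difference 0.69, SE 0.24, 95% interval of the fold 1.11 to 2.35), which did not pass the adjusted threshold of 0.05 (adjusted p = 0.350). The temperature difference had nearly the same size in the lines, 0.68 in Bully and 0.70 in CantonS, and in CantonS the libraries of the temperatures overlapped. Between 7068 and 14668 reads of TotA were behind each value, so counting error (307 to 321 RPKM for CantonS 25C a, for example) was far smaller than the gap between replicates.

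TotC, the next Turandot gene along the arm, had 5.67 and 15.9 RPKM in Bully and 10.03 and 19.8 in CantonS at 19C, against 30.1 and 11.7 in Bully and 54.8 and 27.6 in CantonS at 25C. Both CantonS 25C libraries lay above both CantonS 19C libraries, and the Bully groups overlapped. In the same CantonS comparison limma called 5 of 8 tested hemocyte markers higher at 25C (proPO-A1, nimC1, Ppn, proPO45 and Hml), with a median log2 difference of 1.41 beside -0.11 over all genes. Of all 8480 tested genes 6.42% were called there, 90 genes higher and 454 lower. In Bully 0 of the 8 were called, against 0.0236% of all genes, and 0 had an unadjusted p below 0.05, against 3.21%. Their median there was -0.08 beside 0.02 over all genes. The interaction called 0 of the 8, against 0% of all genes, and 5 had an unadjusted p below 0.05, against 23.8%. Between the lines at 19C, 5 of the 8 were called higher in Bully (nimC1, Ppn, Hml, proPO-A1 and Sr-CI), with a median of 1.21 beside -0.05 over all genes. Of all tested genes 11.5% were called between the lines at 19C, 292 genes higher in Bully and 684 lower. At 25C 0 of the 8 were called between the lines, against 3.03% of all genes. Their median there was -0.0014 beside 0.05, and 4 had an unadjusted p below 0.05, against 16.9%. Of 7 tested fat body markers, 1 was called higher at 25C in CantonS (CG15828) and 2 lower (Yp1 and Yp3), with a median of -0.44. Between the lines at 19C, 2 of those 7 were called higher in Bully (Lsp2 and CG15828) and 0 lower, with a median of 0.62. The part of these markers in the values of TotC was not tested. The log2 difference of TotC at 25C against 19C was 1.43 in CantonS (SE 0.59, adjusted p = 0.138), 0.94 in Bully (SE 0.59, adjusted p = 1.00) and 1.19 averaged over lines (SE 0.41, adjusted p = 0.350). Between the lines at 25C it was -1.03 (SE 0.59, adjusted p = 0.413). The line difference at the lower temperature was -0.54 (SE 0.59, adjusted p = 0.562), and the libraries of the lines overlapped at both temperatures. None of these passed. Leaving out 1 library at a time moved the difference between temperatures to between 0.94 and 1.92 in CantonS and between 0.24 (without Bully 19C a) and 1.65 (without Bully 19C b) in Bully, and the line difference at 25C to between -1.69 (without Bully 25C a) and -0.37 (without Bully 25C b).

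TotM, a Turandot gene on another chromosome arm, varied most. It had 1.81 and 6.49 RPKM in Bully and 2.35 and 8.24 in CantonS at 19C, against 2.98 and 1.498 in Bully and 41.0 and 7.16 in CantonS at 25C. Both Bully 25C libraries lay below both CantonS 25C libraries, with 157 and 67 reads against 1034 and 342. The log2 line difference at 25C was -2.76 (SE 0.84, 95% interval -4.67 to -0.84), and it did not pass over all genes (adjusted p = 0.141). It rests largely on 1 library: without CantonS 25C a it was -1.54 (adjusted p = 0.655), and without CantonS 25C b it was -3.97 (adjusted p = 0.0525). At 19C the difference was -0.31 (SE 0.84, adjusted p = 0.838), and the test of the difference between temperatures, the interaction, gave -2.44 (SE 1.19, adjusted p = 0.246). Leaving out CantonS 25C a gave an interaction of -1.22, and leaving out its replicate b gave -3.66. In CantonS, 25C against 19C gave 1.84 (SE 0.84, adjusted p = 0.170), with 0.62 (adjusted p = 0.717) when CantonS 25C a was left out and 3.06 (adjusted p = 0.0511) when its replicate b was.

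TotX varied least between replicates among the 4 Turandot genes tested, with 24.2 and 23.5 RPKM in Bully and 32.8 and 34.1 in CantonS at 19C, against 33.3 and 25.8 in Bully and 39.5 and 22.0 in CantonS at 25C. Both Bully 19C libraries lay below both CantonS 19C libraries, by 0.72-fold (log2 difference -0.48, SE 0.25, adjusted p = 0.225), and at 25C the lines overlapped. Averaged over lines, the temperature difference was 0.06 (SE 0.18, adjusted p = 0.907), with an interval of the fold from 0.788 to 1.38.

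The regucalcin relative smp-30 had 22.3 and 19.9 RPKM in Bully and 15.9 and 26.6 in CantonS at 19C, against 31.4 and 26.8 in Bully and 22.4 and 22.8 in CantonS at 25C. Both Bully 25C libraries were above both Bully 19C libraries, and the CantonS groups overlapped. The log2 difference of 25C against 19C was 0.45 in Bully (SE 0.22, adjusted p = 1.00), 0.13 in CantonS (SE 0.22, adjusted p = 0.709) and 0.29 averaged over lines (SE 0.16, adjusted p = 0.484). The interval of that average, 0.955-fold to 1.57-fold, holds a slightly higher level at 19C, no change and a moderately lower level at 19C. The paralog regucalcin was more abundant, at 74.7 to 129 RPKM, and was not called in any of the 7 comparisons.

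Across the 5 genes above the 1 RPKM minimum, limma called 0 in each of the 7 comparisons, where called means an adjusted p below 0.05. The share of all 8480 tested genes called was 3.03% for the line comparison at 25C, 11.5% for that at 19C and 8.79% for their average. It was 6.42% for 25C against 19C in CantonS, 0.0236% in Bully, 0.0825% averaged over lines and 0% for the interaction. At an unadjusted p below 0.05 there were 1, 0 and 1 of the 5 in the line comparisons at 25C, at 19C and averaged (TotM each time), against 16.9%, 31% and 23.4% of all tested genes. The temperature comparisons gave 1 in CantonS (TotC), 0 in Bully, and 2 averaged over lines (TotA and TotC), against 31.9%, 3.21% and 11.9% of all genes, and the interaction gave 0 against 23.8%. With the 4 silent genes added in a fit without the minimum, again 0 of 9 were called in each comparison, and 2, 0, 1, 0, 0, 2 and 0 had an unadjusted p below 0.05, against 14.8%, 25.7%, 21.8%, 21.9%, 6.91%, 11.9% and 18.3% of all genes. TotF, with 0 reads in Bully 25C and 3 in CantonS 25C, was 1 of the 2 at 25C and the only 1 in the average of the line comparisons. In that fit 1.71%, 6.91%, 6.71%, 0.0139%, 0.339%, 0.09% and 0.00693% of 14439 genes were called in the same order. The median of all genes was itself shifted in some comparisons, by -0.11 (log2) in CantonS and 0.12 in the interaction. Relative to it, 25C against 19C in CantonS was 0.80 for TotA, 1.54 for TotC, 1.94 for TotM, -0.07 for TotX and 0.24 for smp-30, and the difference of TotX changed sign after quantile normalization (0.026).

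**Figure D3:**
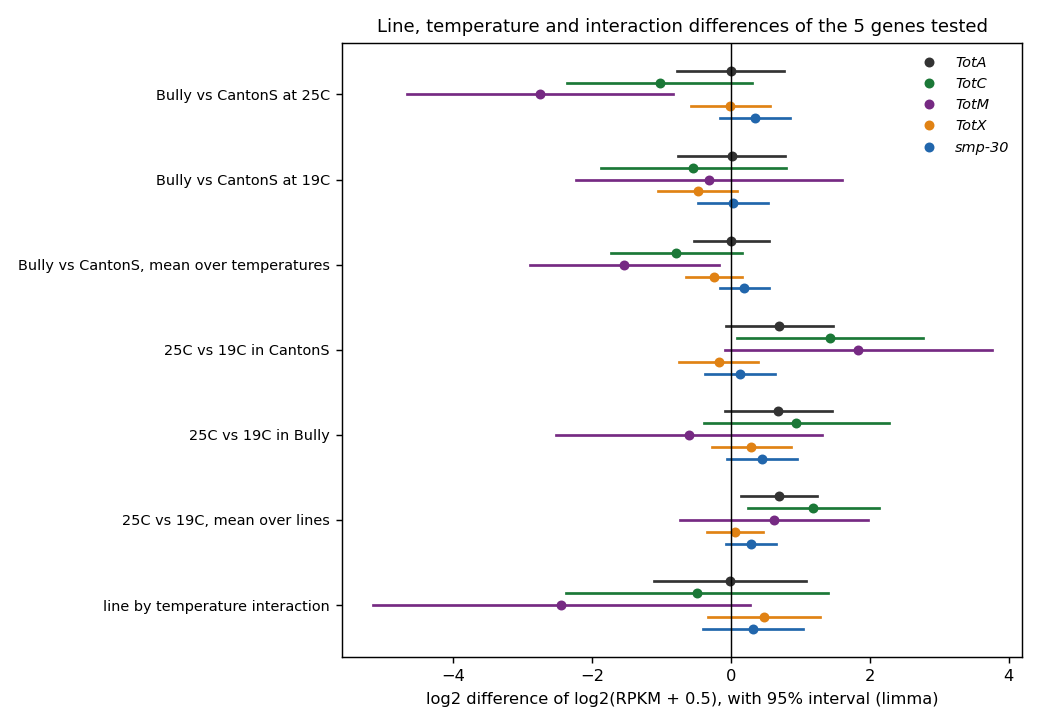
Log2 differences (points) with 95% intervals from limma for the 5 genes tested, in the 7 comparisons; in line comparisons positive means higher in Bully, in temperature comparisons higher at 25C. The intervals of TotA between the lines are centred near 0, and those of TotM are the widest.

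As a description without a test, averaged over lines 5 of 5 genes had higher values at 25C, with a median log2 difference of 0.62 beside -0.04 over all genes. Among them TotX was at 0.06 (SE 0.18) and was lower at 25C in CantonS (-0.18). TotM was lower at 25C in Bully (-0.61). In Bully, 3 of 5 (TotA, TotX, smp-30) had both 25C libraries above both 19C libraries, which held for 26.1% of all tested genes, and 0 of 5 had them below, against 15.6%. In CantonS 1 of 5 lay above (TotC, against 17.6%) and 0 below (against 37.9%). Between the lines at 25C, 1 of 5 was higher in Bully without overlap (smp-30, against 31.3%) and 1 lower (TotM, against 20.4%). At 19C, 0 were higher (against 23.1%) and 1 lower (TotX, against 36.9%). The comparisons share libraries, so these counts are not separate observations.

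TotA, TotC and TotM varied widely between replicates. On the log2 scale the pooled SD within groups was 0.45 for TotA, 0.84 for TotC and 1.21 for TotM, against a median of 0.15 over the 8480 tested genes. TotA was more variable than 97.8% of tested genes, TotC than 99.6% and TotM than 99.8%. Among genes within 2-fold of their own mean level, the shares were 97.1%, 99.8% and 99.6%. TotX (SD 0.32) exceeded 93.1% of all tested genes and smp-30 (SD 0.28) exceeded 88.3%.

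The spread was shared. In each of the 4 groups the same library was the higher one for TotA, TotC and TotM: b in Bully 19C, a in Bully 25C, b in CantonS 19C and a in CantonS 25C. For TotC the replicate difference was 1.41, 1.32, 0.95 and 0.98 log2 units in these groups, for TotM 1.60, 0.80, 1.62 and 2.44, and for TotA 0.57, 0.30, 0.65 and 0.89. TotX and smp-30 did not keep this order in Bully 19C, nor smp-30 in CantonS 25C. This order was found in 675 of the 8480 tested genes (7.96%). With each difference at least as large as the smallest of TotA it was found in 14 genes (0.165%), TotA, TotC and TotM among them. The other 11 included the aquaporin gene Drip, the glutathione transferase gene GstD2, CG5867, CG13841, CG15629 and CG1942, and 5 small RNA genes, of which 3 U6 copies have identical values. This comparison of replicate orders was made after the values had been seen. TotA set both the order and the cutoff, so it passed by construction. A cutoff on size favours variable genes such as TotC and TotM, so the 0.165% is not a test of a shared order. Summed RPKM of 11 hemocyte markers had the same order: 81.0 and 96.0 (a and b) in Bully and 49.2 and 52.8 in CantonS at 19C, against 98.1 and 75.0 in Bully and 102.6 and 72.9 in CantonS at 25C. None of the 11 was at 0, and of the 8 tested 3 (nimC1, proPO45 and Sr-CI) kept the order in every group. The fat body sum had TotA's order in CantonS and the opposite order in Bully, and of the 7 fat body markers tested 1 (Lsp2) kept TotA's order in every group. The part of either cell type in the spread was not tested. CantonS 25C a had the highest value of all 8 libraries for TotA, TotC, TotM and TotX, and it is also the library with the smallest effective size.

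**Figure D4:**
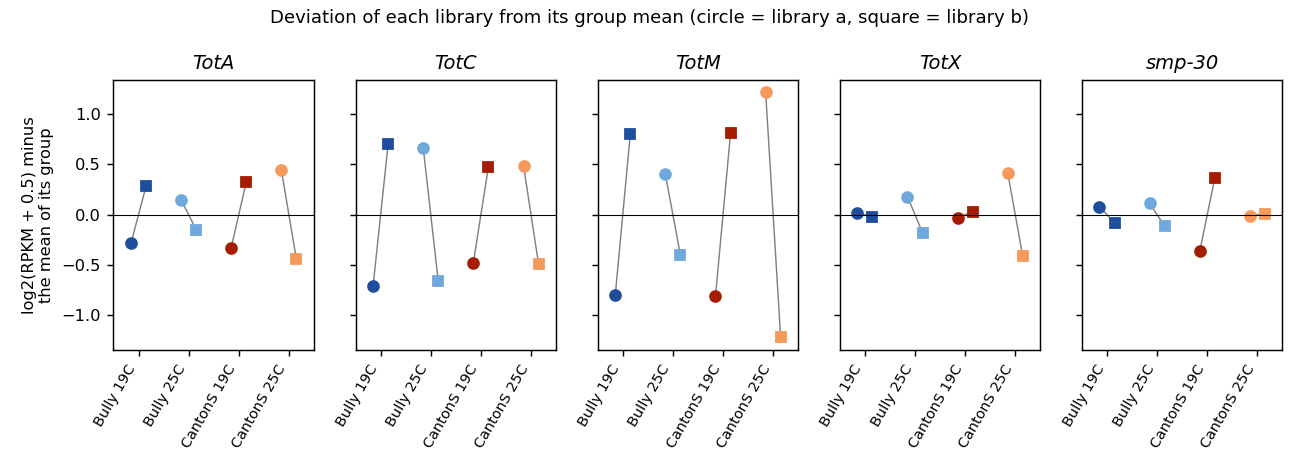
Each library's log2(RPKM + 0.5) minus the mean of its group, for the 5 genes tested; circles are library a and squares library b, joined within a group. TotA, TotC and TotM deviate in the same direction within every group, from 0.30 to 2.44 log2 units between replicates, and TotX and smp-30 do not keep this order.

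Acute stress transcripts did not follow the same order throughout. The heat-inducible chaperone gene Hsp70Aa was at 20.1 RPKM in Bully 19C b and 13.2 in Bully 25C a, the libraries in which TotA was the higher of its group. It was at 6.53 RPKM in CantonS 25C b, where TotA was the lower, and between 1.18 and 2.28 RPKM elsewhere. CantonS 25C a, highest for TotA, had 1.47 RPKM of Hsp70Aa. Hsp22 was at 9.49 RPKM in both Bully 19C b and Bully 25C a and at 2.92 or less elsewhere. By contrast, Hsp83 and DnaJ-1 were highest in CantonS 25C b, at 202 and 35.5 RPKM. Hsp67Ba was highest in Bully 19C a (9.09 RPKM) and Hsp60 in CantonS 19C b (65.4 RPKM). The Hsp70 genes are near-identical copies, and reads may have been split among them. Of the 15 tested heat shock and other cold-studied genes, 1, regucalcin, had TotA's order in all 4 groups.

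**Figure D5:**
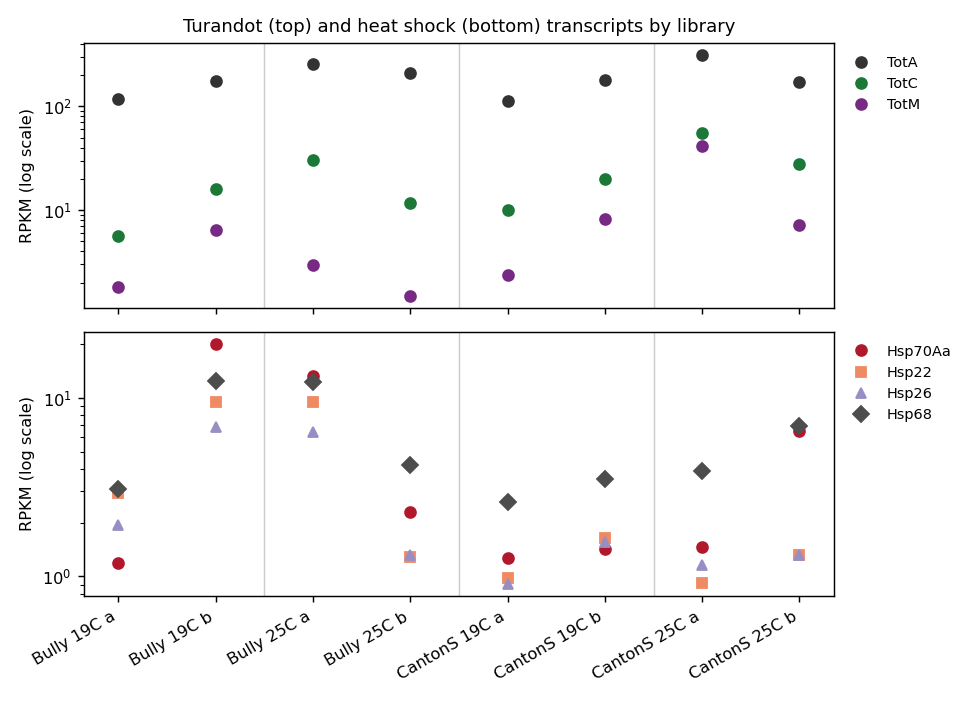
RPKM (log axes) of TotA, TotC and TotM (top) and of the heat shock genes Hsp70Aa, Hsp22, Hsp26 and Hsp68 (bottom) in the 8 libraries. The heat shock genes shown, chosen after their values were seen, peak in Bully 19C b and Bully 25C a, and the Turandot genes in CantonS 25C a. Other heat shock genes peak in other libraries.

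The signalling genes above the Turandot genes were measured in the same heads. Of 13 JAK/STAT pathway genes 9 were tested. The 3 ligand genes were nearly silent, with upd1 (listed as os), upd2 and upd3 at no more than 0.043 RPKM in any library. The receptor gene dome was at 2.81 to 3.86 RPKM, the kinase gene hop at 0.97 to 1.88 and Stat92E at 17.8 to 25.7 RPKM. For Bully against CantonS, ken, a repressor of Stat92E targets, rose at 19C (log2 difference 0.51, SE 0.12, adjusted p = 0.0309) and in the average of both temperatures (0.37, SE 0.09, adjusted p = 0.0323), and 0 fell. That is 1 of the 9 each time, where 11.5% of all tested genes were called at 19C and 8.79% in the average. In CantonS, hop was higher at 25C (0.54, or 0.64 relative to the median of all genes, SE 0.13, adjusted p = 0.0492), a call lost in 7 of the 8 fits that left out a library. Of all tested genes 6.42% were called in that CantonS comparison. The other comparisons called 0 of the 9 in limma, against 0% to 3.03% of all tested genes. At an unadjusted p below 0.05 there were 5 of 9 between the lines at 19C (against 31% of all tested genes), 3 in the line average (against 23.4%), 2 in CantonS between temperatures (against 31.9%), and 0 to 2 in the other comparisons. The median log2 difference of the 9 between the lines at 19C was 0.30 beside -0.05 over all genes, and at 25C -0.01 beside 0.05. The feedback inhibitor Socs36E, itself a target of the pathway, ranged from 3.09 to 4.35 RPKM. TotA's replicate order, found in 7.96% of all tested genes, was kept by 2 of these 9 genes (Socs36E and Socs44A), by 2 of 14 stress MAP kinase genes (Tak1 and Mpk2) and by 2 of 16 Imd and Toll genes (PGRP-LC and dl), and by 0 genes of these lists with differences as large as the smallest of TotA.

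Among 14 tested genes of the stress MAP kinase pathways, including Mekk1, limma called 0 in every comparison, with 0 to 3 at an unadjusted p below 0.05. Of all tested genes, 0% to 11.5% were called in the 7 comparisons, and 3.21% to 31.9% had an unadjusted p below 0.05. The 3 of 14 were between the lines at 19C, against 31% of all genes. Of 16 genes of the Imd and Toll core, 1 rose and 1 fell in Bully at 19C and likewise averaged over temperatures, with 0 called elsewhere and 0 to 3 at an unadjusted p below 0.05. Those line comparisons called 11.5% of all genes at 19C and 8.79% averaged over temperatures. The rise was in Dif, a Toll pathway factor (0.47, SE 0.12, adjusted p = 0.0381 at 19C; 0.32, SE 0.08, adjusted p = 0.0496 averaged). The fall was in the adaptor gene Fadd, listed as BG4 (-0.49, SE 0.13, adjusted p = 0.0421; -0.45, SE 0.09, adjusted p = 0.0172). Of the 15 heat shock and other cold-studied genes, averaged over temperatures, Hsp27 was higher in Bully (1.07, SE 0.27, adjusted p = 0.0447). The heat shock factor gene Hsf was lower in Bully (-0.40, SE 0.10, adjusted p = 0.0391). That average called 8.79% of all genes, and 6 of the 15 had an unadjusted p below 0.05, against 23.4%. In the other comparisons 0 of the 15 passed, with 1 to 5 at an unadjusted p below 0.05. The median log2 difference of those 15 between the lines, averaged over temperatures, was 0.68 beside -0.0012 over all genes, and between temperatures, averaged over lines, -0.03 beside -0.04. Libraries of the Bully groups differed: Hsp22 was at 2.92 and 9.49 RPKM (a and b) in Bully 19C and at 9.49 and 1.28 in Bully 25C. Hsp23, Hsp26 and Hsp27 were likewise higher in Bully 19C b and Bully 25C a than in the replicate. Hsf, Hsp67Ba and Hsp60 did not keep that order in both groups. Each call of Dif, Fadd, ken, Hsp27 and Hsf was lost with at least 5 of the 8 libraries left out singly.

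Patterns most like each gene were sought over all 8 libraries by the root mean square difference of centred log2 values, as a description. The 9 genes themselves were set aside. For TotC the nearest 3 were CG1942 (0.52 log2 units), Diedel (0.62), which encodes a secreted immune regulator, and proPO45 (0.67), a prophenoloxidase gene of hemocytes. Beside these, TotC lay at 0.80 from TotM and at 0.59 from TotA, while TotA was nearer to smp-30 (0.37) and TotX (0.42) and at 1.12 from TotM. For TotM they were snoRNA:Psi28S-2566 (0.79), Diedel again (0.93) and the stress-linked lipocalin gene NLaz (0.95). Diedel was at 7.68 RPKM in CantonS 25C a and did not exceed 2.80 RPKM elsewhere. For TotA the nearest were yellow-h (0.25), CG41343 (0.25) and the cuticle gene Cpr11B (0.29). For TotX they were CG30441, exba and PDCD-5 (0.15 to 0.16), and for smp-30 ninaE, CG5343 and Mppe (0.12 to 0.13). The flatter a pattern, the smaller this distance can be: a constant gene would lie at 0.29 from TotX, 0.27 from smp-30, 0.47 from TotA, 0.93 from TotC and 1.34 from TotM. TotC, at 0.59, was thus further from TotA than a constant gene is. Seen from TotC, TotA at 0.59 was nearer than a constant gene, at 0.93.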

How the data were processed

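RNA from 8 whole-head samples had been sequenced. The deposited values are RPKM per gene, made by the authors, in 1 table with a column per library. Per the submitters' processing notes, TopHat2 2.0.4 and edgeR 3.8.6 were used, with builds dm3 and BDGP5; the steps, annotation and any rescaling of library sizes are not given in the sources used here. Reference order and transcript lengths came from Ensembl's BDGP6 annotation, another build, so no coordinates are given.

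The RPKM of 1 read per kilobase was read from the commonest step of genes with a single transcript, which gave library sizes and reads (whole within 0.02). For TotM a length between those of its 2 transcripts was searched, and for smp-30 none gave whole reads. The 8480 genes averaging 1 RPKM or more were tested on log2(RPKM + 0.5), 1 model with 4 group means, limma 3.58.1 in R 4.3.3, eBayes with trend (4 residual and 4.47 prior degrees of freedom), two-sided, Benjamini-Hochberg adjusted over all tested genes in each of 7 comparisons, threshold 0.05. Genes below the minimum were tested without it (14439 genes). The pseudocount of 0.5 understates changes of low genes. The model was tested on simulated data.

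Members, lists and tests were chosen with earlier results of these data known. Older symbols were matched through RefSeq. All 9 genes are described; promoters and proteins were not analysed here. Called genes of each pathway and stress list are named, up to 3 by smallest p. Of the cell type marker lists only some genes are named, after their values were seen. These are fat body and hemocyte genes beside a result, neuron genes and ninaE. Also named are the 3 nearest patterns of each tested gene. The other genes and library values named (those of the shared replicate order, heat shock and Diedel levels, desat2) were chosen after their values were seen.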

Additional observations from a re-analysis of the deposited data

How the results depend on the processing

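Alternatives were pseudocounts of 0.1 and 1, no minimum or a minimum of 5 RPKM, median-of-ratios rescaling, quantile normalization, fitting the compared groups alone (not possible for averages and the interaction), no variance trend, a robust prior, and leaving out each library. When a group keeps 1 library, it is assumed to vary like the others. No paired analysis was possible because the columns carry no replicate numbers. The count of genes called was 0 in all 116 recounts. These covered the 5 genes above the 1 RPKM minimum, and TotB, TotF, TotZ and Fst only in the fit without a minimum. Of 580 recomputed differences of the 5 genes, 551 kept their sign and 29 changed it, none of them called before or after. The smallest adjusted p was 0.0511, for TotM at 25C against 19C in CantonS without CantonS 25C b, and 0.0737 with all libraries, for TotX between the lines at 19C in a fit of those groups. Quantile normalization turned TotX at 25C against 19C in CantonS to 0.026. The other changes of sign came from leaving out 1 library, and the cause was not tested. In the line comparison at 19C the ranges were -0.31 to 0.34 for TotA, -1.25 to 0.16 for TotC, -1.12 to 0.50 for TotM and -0.33 to 0.40 for smp-30. At 25C they were -0.44 to 0.44 for TotA and -0.42 to 0.41 for TotX, and averaged over temperatures -0.22 to 0.23 for TotA. For 25C against 19C they were -0.59 to 0.24 for TotX and -0.23 to 0.50 for smp-30 in CantonS, -1.41 to 0.19 for TotM in Bully, and -0.15 to 0.27 for TotX averaged over lines. For the interaction they were -0.46 to 0.43 for TotA, -1.19 to 0.22 for TotC and -0.045 to 0.68 for smp-30. Depth limits TotB, TotF, TotZ and Fst, which rest on 1 to 20 reads each.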

Other observations

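The desaturase gene desat2, in the list of cold-studied genes, was at 21.7 RPKM in Bully 25C a while no other library exceeded 0.783 RPKM and its replicate Bully 25C b had 0.166 RPKM. Its paralog desat1 was at 222 to 309 RPKM in every library. Desi, a gene linked to desiccation tolerance in larvae, did not exceed 0.245 RPKM.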
